A study of Homo sapiens with 17 samples.

Results

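The DNA damage checkpoint genes described here are the kinases ATM, ATR, CHEK1 and CHEK2 and the proteins that activate them or carry their signal, ATRIP, TOPBP1, CLSPN, MDC1, TP53BP1 and RNF168. They were chosen by name, as genes whose products signal from broken DNA. No measured value set the choice, though earlier results of these data were known when it was made. All 10 genes passed the count minimum and are among 9016 genes tested at 36 h and 10896 genes tested at 72 h. HEK293 cells, a human embryonic kidney line, were electroporated with Cas9 or with catalytically inactive dCas9, each in complex with the sgIntron guide, which targets an intron of JAK2. Cells were harvested 36 or 72 h later, and ribosome footprints and mRNA were sequenced from the lysates. The 17 libraries held 2 Cas9 and 2 dCas9 footprint libraries at each time point, 3 Cas9 and 2 dCas9 mRNA libraries at 36 h, and 2 of each at 72 h. Both groups thus received electroporation, protein and guide, and differ in whether the bound nuclease can cut. Several small electroporations of this one line were pooled into each replicate, and the guides were synthetic at 36 h and transcribed in vitro at 72 h.

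Checkpoint signalling starts with large kinases of the PI3K-like family. ATM is activated at double-strand breaks by the MRE11, RAD50 and NBN proteins and phosphorylates CHEK2 and the histone variant H2AX, whereas ATR, held on RPA-coated single-stranded DNA by its partner ATRIP, is switched on by TOPBP1 and phosphorylates CHEK1 through the adaptor claspin (CLSPN). On chromatin, MDC1 binds phosphorylated H2AX and recruits ubiquitin ligases, RNF168 extends the ubiquitin mark on H2A, and TP53BP1 (53BP1) reads it. Much of this signalling runs through modification of proteins already present, so the libraries report how the machinery is expressed and translated, and not how active it is.

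The total count over the kept transcripts ran from 689636 to 4868580 in the footprint libraries at 36 h, a 7.06-fold range, and from 3183558 to 8864461 at 72 h. In mRNA it ran from 25095505 to 33350952 at 36 h and from 33040306 to 42825659 at 72 h. Levels are given in CPM, read counts per 1e6. For the cell line markers these are taken over the total of kept transcripts, and for all other genes they are normalised as described under processing. Of the markers of HEK293 cells, VIM lay between 595 and 2300 CPM, KRT18 between 50.8 and 139 CPM and LIN28B between 24.0 and 64.3 CPM. KRT8 (0 to 9.74 CPM) and NEFM (2.60 to 25.1 CPM) were low. The erythroid genes GATA1, HBG1, HBG2 and HBE1, markers of K562 cells, which the study also used, had at most 3 reads in any library, and LYL1, a further such marker, up to 11. Reads of JAK2 come from its exons, so they do not check cutting in the intron.

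Footprints sit on the coding region from the start codon on, so the letters around the start codons are shown for the genes at either end of the range of footprints per mRNA described further on. They are 12 bases of the leader, the start codon in capitals and the 3 bases after it, read from the MANE Select transcripts of GENCODE 44 on hg38.
MDC1: ttaaagtagatcATGgag
ATRIP: tgagcggaaagcATGgcg
CHEK1: ctcggtggagtcATGgca
ATM: aaattgtgaaccATGagt
TOPBP1: acgagttcagaaATGtcc
RNF168: taacatattgaaATGgct
A purine at position -3 and a G at position +4 (counted with the A of the start codon as +1) mark the sequence context that initiating ribosomes favour. Both were present in MDC1, ATRIP, CHEK1 and RNF168, as in 48% of the 10590 tested genes with a MANE Select transcript, while ATM (A at +4) and TOPBP1 (T at +4) had only the purine. In full, all 10 genes had a purine at -3 and 5 had a G at +4, the fifth being ATR. RNF168 and CHEK1 stood apart in their leaders, with 595 and 870 bases and 4 upstream ATG triplets each, a number reached by 6.88% of tested genes. ATM had 1 such triplet in 150 bases and the other 7 genes had none, whereas 39.4% of tested genes had at least 1.

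The genes lie on 6 chromosomes of hg38. MDC1 occupies chr6:30699807-30717447 on the minus strand, and 11.2% of its coding bases lie within exons of the antisense non-coding gene MDC1-AS1. ATM (chr11:108223044-108369102) and CHEK1 (chr11:125625163-125676255) are on the plus strand of the same chromosome arm. ATRIP (chr3:48446710-48467645, plus strand), TOPBP1 (chr3:133598175-133662380), ATR (chr3:142449007-142578733) and RNF168 (chr3:196468783-196503768, these last on the minus strand) share chromosome 3. CHEK2 (chr22:28687743-28742422, minus strand) has 7 named pseudogenes in the annotation, so reads of its copies may be split among them. TP53BP1 (chr15:43403061-43510728, minus strand) shares 10.6% of its coding bases with exons of TUBGCP4 on the other strand, and CLSPN (chr1:35720218-35769978, minus strand) 7.0% with a non-coding gene. Whether the counting used strand is not given in the sources used here, so reads of such shared bases cannot be told apart.

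Most members are long. The coding region was 9171 bases in ATM, 7935 in ATR, 6270 in MDC1, 5934 in TP53BP1, 4569 in TOPBP1 and 4020 in CLSPN, against a median of 1449 bases over the tested genes with a MANE Select transcript. It was 2376 bases in ATRIP, 1716 in RNF168, 1632 in CHEK2 and 1431 in CHEK1. Levels are therefore compared between genes per coding length, as CPM per kilobase of counted coding region (RPKM).

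Per length, the apical kinases carried the fewest ribosomes and the effector kinase CHEK1 the most. In dCas9 footprints at 72 h, CHEK1 had 53.1 ± 4.76 RPKM (SD, n = 2) and MDC1 50.4 ± 0.079, and these did not differ beyond their spread. Below them came CLSPN (35.8 ± 0.11), CHEK2 (24.2 ± 0.59), TOPBP1 (19.0 ± 0.015), TP53BP1 (17.8 ± 1.39), ATRIP (13.8 ± 0.23), RNF168 (10.4 ± 0.65), ATR (6.39 ± 0.42) and ATM (5.58 ± 0.0056), with no overlap between neighbours in that order. The median tested gene had 21.0 RPKM, so ATM lay at percentile 15.9 and CHEK1 at percentile 73.8. At 36 h the order in dCas9 again ran from CHEK1 (38.5 ± 3.86) to ATR (6.27 ± 0.19) and ATM (3.55 ± 2.01), but CLSPN overlapped with MDC1, and TP53BP1, TOPBP1, ATRIP and RNF168 each with the next in order. The RNF168 value at that time rests on 2 and 129 reads in its dCas9 libraries.

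The mRNA followed another order. TOPBP1 led the dCas9 mRNA libraries with 57.6 ± 10.2 RPKM at 72 h and 46.8 ± 1.47 at 36 h, and ATR was last with 11.1 ± 3.12 and 7.67 ± 1.60. At 36 h no neighbours overlapped in mRNA (TOPBP1, CHEK1, CLSPN, RNF168, CHEK2, TP53BP1, MDC1, ATRIP, ATM, ATR). At 72 h only MDC1 with TP53BP1 and TP53BP1 with ATM did not overlap, as the dCas9 mRNA replicates differed up to 1.59-fold (ATM) among the members.

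**Figure D1:**
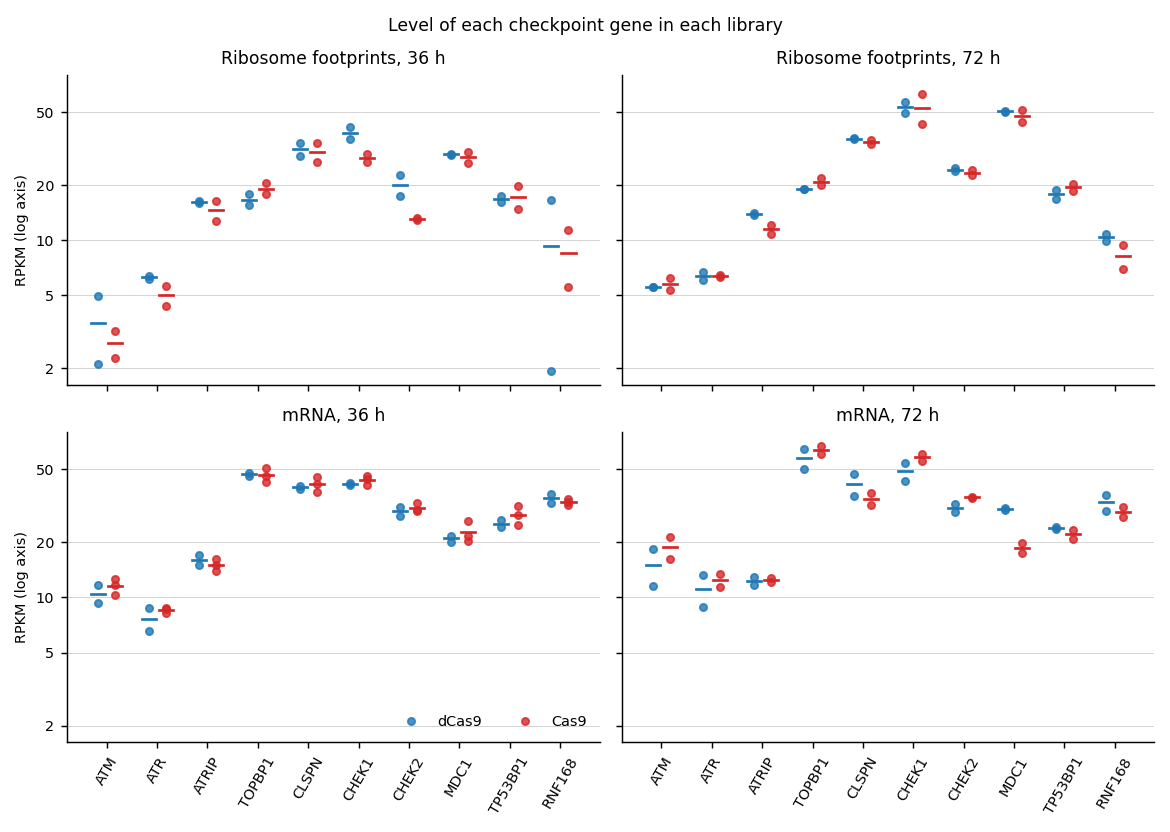
Level of each checkpoint gene in RPKM (log axis) in each of the 17 libraries, in 4 panels by library type and time point; points are libraries, short lines group means, blue dCas9 and red Cas9. ATM and ATR are lowest in footprints, TOPBP1 is high in mRNA but not in footprints, and the red and blue points of MDC1 mRNA separate at 72 h.

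Partners that act together did not carry equal footprint densities. ATRIP, which is needed to keep ATR stable, had 2.04 to 2.30 times the footprint RPKM of ATR in the dCas9 libraries at 72 h and 1.73 to 1.87 times in the Cas9 libraries. At 36 h the ratio was 2.57 to 2.61 in dCas9 and 2.26 to 3.74 in Cas9, so ATRIP exceeded ATR in all 8 footprint libraries. CHEK1 exceeded CHEK2 in each of the 8 as well, by 1.80 to 2.76 times at 72 h and by 1.82 to 2.23 times at 36 h, and its excess in mRNA was smaller, 1.30 to 1.73 times over the 9 libraries. ATR and ATM were close in footprints at 72 h, with ratios between 1.01 and 1.2, although ATR mRNA was 0.633 to 0.765 times ATM mRNA in those samples.

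The ratio of footprints to mRNA within dCas9 libraries spread widely among the members. Coding length cancels in it, so it measures ribosome density per length of mRNA relative to other genes, not ribosomes per transcript. At 72 h, MDC1 had the highest log2 ratio, 0.73 ± 0.10 (SE), at percentile 82.3 of all tested genes, and was above 0 in 4 of 4 pairs of a footprint and an mRNA library. RNF168 (-1.66 ± 0.17), TOPBP1 (-1.60 ± 0.12) and ATM (-1.43 ± 0.19) were lowest, at percentiles 5.26, 5.87 and 7.86, and were below 0 in every pair. The adjusted p was 1.40e-05 for MDC1 and at most 5.37e-06 for the other three. The footprint share of the ubiquitin ligase, the ATR activator and the break-sensing kinase was thus 3.17, 3.03 and 2.69 times below their mRNA share. In the quasi-likelihood test of edgeR, adjusted by Benjamini-Hochberg, 7 of 10 members differed from 0, 1 above and 6 below, where 70.6% of all tested genes did. The other 3 called were ATR (-0.79 ± 0.17, adjusted p = 5.28e-04), TP53BP1 (-0.43 ± 0.11, adjusted p = 0.00319) and CHEK2 (-0.34 ± 0.13, adjusted p = 0.0274).

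At 36 h the same test called 6 of 10 members, against 48.2% of all genes. They were TOPBP1 (-1.53 ± 0.16), RNF168 (-1.42 ± 0.37), ATM (-1.33 ± 0.26), CHEK2 (-0.65 ± 0.24), TP53BP1 (-0.58 ± 0.18) and, above 0, MDC1 (0.49 ± 0.16), with adjusted p between 3.81e-06 and 0.0428. ATR, at -0.28 ± 0.22 (adjusted p = 0.335), was not called. ATRIP (0.028 and 0.17), CHEK1 (-0.14 and 0.12) and CLSPN (-0.31 and -0.21) were not called at either time. The call of CHEK2 at 36 h was lost without dCas9 mRNA replicate d (adjusted p = 0.194) or dCas9 footprint replicate d (0.385) and without the count minimum (0.129), that of TP53BP1 without dCas9 mRNA replicate d (0.109), that of MDC1 at 36 h without dCas9 mRNA replicate e (0.142), and that of CHEK2 at 72 h without dCas9 footprint replicate e (0.127). Without dCas9 mRNA replicate a at 72 h, ATRIP (0.32, adjusted p = 0.0811) and CLSPN (-0.33, adjusted p = 0.0134) were called too.

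**Figure D2:**
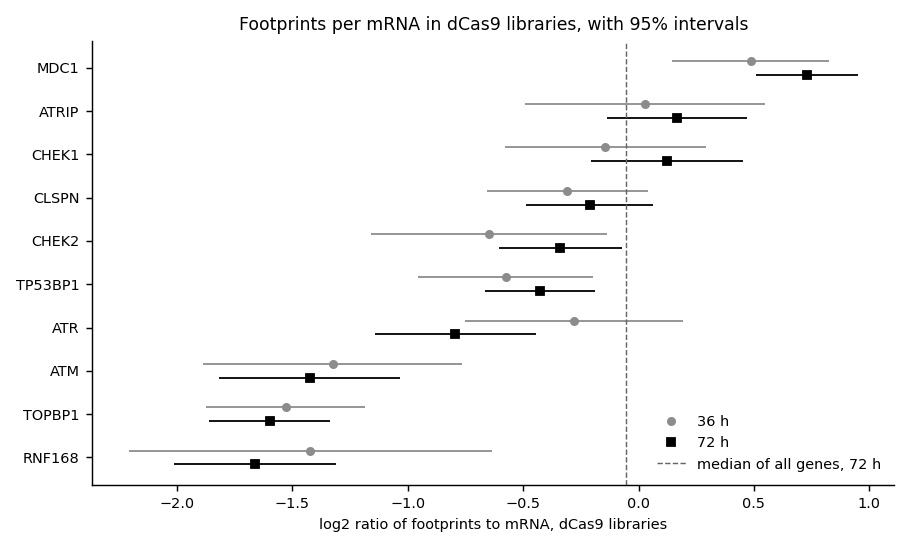
Log2 ratio of footprints to mRNA in dCas9 libraries at 36 h (grey circles) and 72 h (black squares) with 95% intervals from the edgeR fit, ordered by the 72 h value; the dashed line is the median of all tested genes at 72 h (-0.055). MDC1 lies above the line at both times, and ATM, TOPBP1 and RNF168 lie below -1 at both.

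Over all tested genes at 72 h, those with an upstream ATG in the leader had a median log2 ratio of -0.50 and those without 0.15, and those with 4 or more had -0.89. RNF168 with 4 upstream ATGs lay below that last median, while CHEK1 with as many lay at 0.12, and TOPBP1, among the lowest, had none. RNF168 and MDC1, at opposite ends of the range, both carry the purine at -3 and the G at +4.

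The first question of the design was whether cutting changes the translation of these genes at 36 h. No member passed the test in footprints: edgeR called 0 of 10, with 0 at an unadjusted p under 0.05 and 0 by DESeq2, and 0.0% of all genes were called. Of the 10 log2 fold changes (Cas9 over dCas9), 8 were below 0, with a median of -0.24. The median of all tested genes was 0.015 and 51.5% were above 0. The members share the same libraries, so their signs are not independent. With 1 library left out, ATM reached 0.448, ATRIP 0.009, CLSPN 0.101, MDC1 0.051 and RNF168 2.289, while ATR, CHEK1 and CHEK2 stayed below 0. The 95% intervals of all 10 included 0. Without dCas9 footprint replicate d or Cas9 footprint replicate c, 918 or 323 of all genes were called, and still 0 members.

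Among the apical kinases, ATM had 20.7 CPM in Cas9 replicate a and 29.1 in c, from 18 and 68 reads, against 45.3 in dCas9 replicate d and 19.3 in e, from 213 and 12 reads. The dCas9 replicates of ATM thus lay on either side of both Cas9 replicates, with a log2 fold change of -0.54 ± 0.32 (SE) and an adjusted p of 0.606. ATR had 34.5 and 44.6 CPM in Cas9 and 50.4 and 48.3 in dCas9, so the groups did not overlap, and the log2 fold change was -0.29 ± 0.25. ATRIP had 37.98 and 29.6 CPM in Cas9 and 38.04 and 37.0 in dCas9, with a log2 fold change of -0.20 ± 0.28. The ATR activator TOPBP1 was the member with the highest value, 92.1 and 80.1 CPM against 69.7 and 80.5, a log2 fold change of 0.22 ± 0.18 (adjusted p = 0.728). CLSPN had 106 and 134 CPM in Cas9 and 135 and 114 in dCas9, and its groups overlapped.

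The effector kinases were lower in both Cas9 libraries than in either dCas9 library. CHEK1 had 40.3 and 36.4 CPM in Cas9, from 35 and 85 reads, and 48.9 and 56.4 in dCas9, from 230 and 35 reads. Its log2 fold change was -0.44 ± 0.24, with an unadjusted p of 0.0856 and an adjusted p of 0.574. CHEK2 had 20.7 and 20.1 CPM in Cas9, from 18 and 47 reads, and 27.4 and 35.4 in dCas9, from 129 and 22 reads, with a log2 fold change of -0.54 ± 0.29 (adjusted p = 0.567). ATR, CHEK1 and CHEK2 were the 3 members whose groups did not overlap, where 30.4% of all tested genes had no overlap.

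The chromatin mediators gave no common direction in these footprints. MDC1 had 189 and 163 CPM in Cas9 against 182 and 182 in dCas9, and TP53BP1 86.3 and 116 against 102 and 94.98, with log2 fold changes of -0.064 ± 0.17 and 0.060 ± 0.19. RNF168 had 9.21 and 18.9 CPM in Cas9 and 27.4 and 3.22 in dCas9, an 8.51-fold difference between replicates of the same group. For RNF168 the 95% interval of the log2 fold change ran from -1.45 to 0.53. Its single pairs of libraries ran from -1.56 to 2.51, beyond that interval, so neither direction nor size was settled at this depth.

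In mRNA at 36 h the log2 fold changes of the 10 members lay between -0.088 (ATRIP) and 0.16 (ATR), with a median of 0.068 against -0.00027 for all genes. Here edgeR called 0 of 10, with 0 at an unadjusted p under 0.05 and 0 by DESeq2, and 0.0% of all genes were called. None of the 10 had groups that did not overlap, against 16.9% of all genes. MDC1 had 135, 126 and 162 CPM in Cas9 replicates a, b and c and 135 and 125 in dCas9. ATM had 94.0, 107 and 114 CPM in Cas9 and 107 and 84.5 in dCas9. CHEK1 had 55.8, 63.1 and 60.5 CPM in Cas9 and 55.8 and 57.4 in dCas9, and CHEK2 46.8, 46.4 and 51.1 against 49.1 and 43.8.

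Translational efficiency, the change in footprints beyond that in mRNA, was below 0 for 9 of the 10 members at 36 h, with a median of -0.29 against 0.010 for all genes, of which 51.1% were above 0. TOPBP1 was the exception, at 0.23 ± 0.22. With 1 library left out, ATM, ATRIP, CLSPN, TP53BP1 and RNF168 also reached values above 0, while ATR, CHEK1, CHEK2 and MDC1 stayed below. No member was called by edgeR (0 of 10, 0 at an unadjusted p under 0.05, 0 by DESeq2), as 0.0% of all genes were. Without dCas9 footprint replicate d, 474 of all genes were called. ATM (-0.68 ± 0.38), CHEK2 (-0.59 ± 0.34), CHEK1 (-0.51 ± 0.29) and ATR (-0.45 ± 0.31) had the lowest values, with adjusted p between 0.823 and 0.863. Their coding regions have 38.8, 45.4, 41.8 and 39.99% GC, and that of TOPBP1, above 0, has 41.6%. Over 8994 genes at 36 h, the Spearman correlation of log2 fold change with GC content was 0.15 in footprints and -0.25 in mRNA. The 355 genes with 38 to 40% GC had medians of -0.067 and 0.095. The part of GC content in the members' efficiency values was not tested. For CHEK1, CHEK2 and ATR, all 24 combinations of footprint and mRNA pairs were below 0, though the combinations reuse the same libraries. No share over all tested genes is given for this count, so it does not set these members apart. Footprint and mRNA libraries that share a letter were read as coming from the same lysate. On that reading the log2 ratio of CHEK2 was -1.17 and -1.34 in Cas9 lysates a and c. It was -0.84 and -0.31 in dCas9 lysates d and e. That of CHEK1 was -0.47 and -0.73 against -0.19 and -0.027. These 2, ATR (-0.91 and -0.63 against -0.46 and -0.091) and TP53BP1 (-0.75 and -0.68 against -0.61 and -0.57) were the 4 of 10 members whose lysates did not overlap, where 31.6% of all tested genes had no overlap. The ratio of ATM, -2.18 and -1.97 against -1.24 and -2.12, did overlap.

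**Figure D3:**
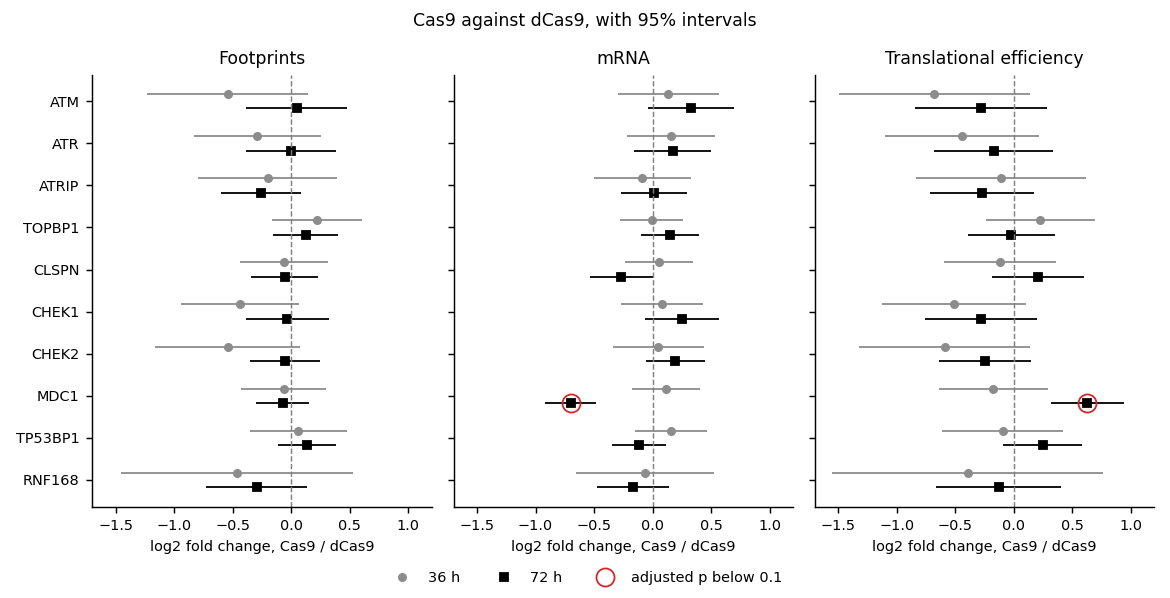
Log2 fold change of Cas9 over dCas9 for each member in footprints, mRNA and translational efficiency at 36 h (grey circles) and 72 h (black squares), with 95% intervals from the edgeR fit; red circles mark an adjusted p below 0.1. Only MDC1 mRNA (-0.70) and MDC1 translational efficiency (0.63), both at 72 h, are marked.

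At 72 h, MDC1, the scaffold that reads phosphorylated H2AX, was the member that changed. Its mRNA had 109 and 124 CPM in Cas9 replicates a and b, from 3920 and 4254 reads, and 186 and 192 CPM in dCas9 replicates a and b, from 6740 and 8541 reads. Both Cas9 libraries lay below both dCas9 libraries, and the replicates differed by 1.14-fold in Cas9 and 1.03-fold in dCas9. MDC1 mRNA fell by 0.70 ± 0.10 on the log2 scale (SE, 95% interval -0.92 to -0.48, adjusted p = 0.00126), a group mean 0.615 times that of dCas9, at percentile 1.46 of all tested genes. In bulk lysates, fewer cells in a state that expresses the gene and less RNA per cell cannot be told apart. The call held in every setting tried, with adjusted p between 3.56e-08 and 0.0282. With 1 of 10 members called, the share compares with 5.64% of all genes, most of which were lower in Cas9 (568 of 614). Without Cas9 mRNA replicate a, 110 genes were called in all, and without dCas9 footprint replicate e or f, 409 or 405.

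The footprints of MDC1 were not called. They had 273 and 320 CPM in Cas9 replicates e and f and 312.5 and 313 in dCas9 replicates e and f, a log2 fold change of -0.074 ± 0.11 with a 95% interval from -0.30 to 0.15. Translational efficiency of MDC1 therefore rose by 0.63 ± 0.15 (95% interval 0.31 to 0.94, adjusted p = 0.0951). All 16 combinations of pairs were above 0, though they reuse the same libraries and no share over all tested genes is given for this. With the replicate letters as a block in the edgeR fit, the value was 0.624 and not called (adjusted p = 0.113). Libraries sharing a letter at 72 h did not deviate together (correlations 0.011 in footprints and -0.14 in mRNA). With the mRNA letters crossed, a block added after the data were seen, it was called (0.624, adjusted p = 0.0193). It was also called with DESeq2 (adjusted p = 0.00905), median-ratio size factors (0.0398), no count minimum (0.0112) and GC dependence removed (0.0104). In the edgeR fit without a block MDC1 was the only member called, against 0.716% of all genes. This call is close to the threshold: it was lost without Cas9 mRNA replicate a (adjusted p = 0.409), without dCas9 footprint replicate e (0.451) or f (0.408) and without Cas9 footprint replicate e (0.176) or f (0.329), while the log2 value stayed between 0.51 and 0.75. The count over all genes, 78, was as low as 1 without Cas9 footprint replicate e or f or dCas9 footprint replicate f, and 1065 without dCas9 mRNA replicate b.

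**Figure D4:**
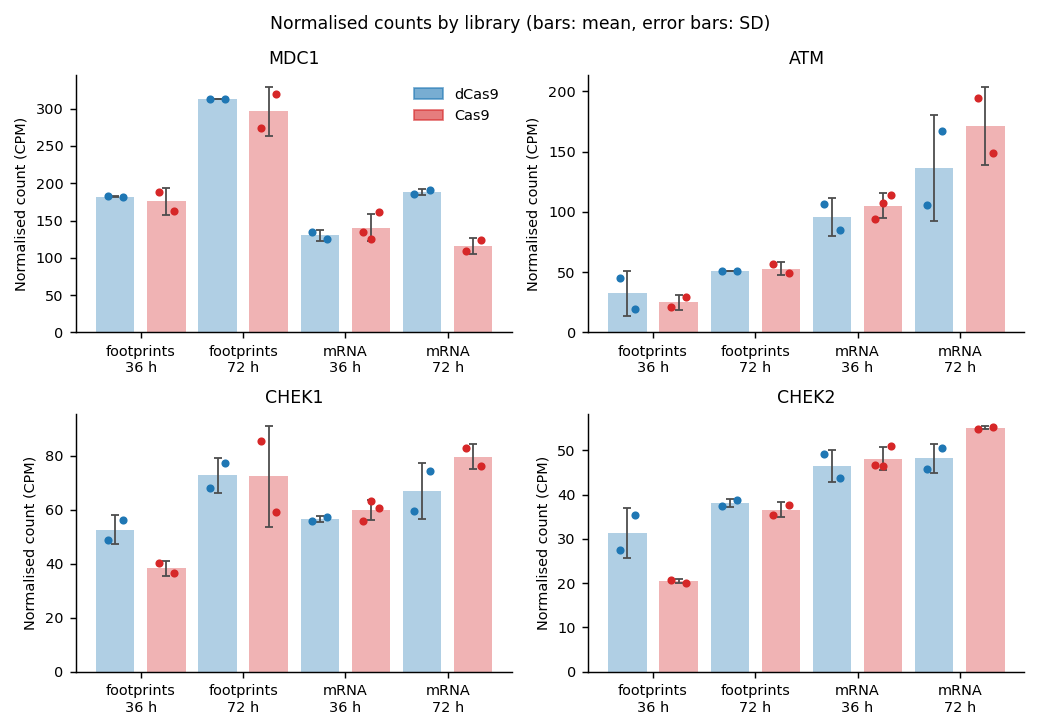
Normalised counts (CPM) of MDC1, ATM, CHEK1 and CHEK2 by library type, time point and nuclease; bars are means, error bars SD and points libraries (n = 2, and n = 3 for Cas9 mRNA at 36 h), blue dCas9 and red Cas9. MDC1 mRNA at 72 h has 109 and 124 CPM in Cas9 below 186 and 192 in dCas9, while its footprints at 72 h overlap.

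The kinases lay on the other side of 0 in mRNA at 72 h, without passing the test. ATM had 194 and 148 CPM in Cas9 and 105 and 167 in dCas9, a log2 fold change of 0.33 ± 0.17 (adjusted p = 0.343), and the Cas9 replicate b lay below the dCas9 replicate b. ATR had 106 and 90.0 CPM against 69.7 and 104 (0.17 ± 0.15). CHEK1 had 82.9 and 76.3 CPM in Cas9 and 59.5 and 74.3 in dCas9 (0.25 ± 0.15, adjusted p = 0.408). CHEK2 had 54.9 and 55.4 CPM in Cas9 and 45.8 and 50.5 in dCas9 (0.19 ± 0.12, adjusted p = 0.417). The groups of CHEK1 and CHEK2 did not overlap, with Cas9 higher.

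The adaptors and mediators other than MDC1 were not called either. TOPBP1 had 302 and 274 CPM in Cas9 and 227 and 292 in dCas9 (0.15 ± 0.12), and ATRIP 28.1 and 29.5 against 30.1 and 27.0 (0.012 ± 0.13). CLSPN, the adaptor of CHEK1, had 126 and 147 CPM in Cas9 and 141 and 187 in dCas9, with a log2 fold change of -0.27 ± 0.13 (unadjusted p = 0.0512, adjusted p = 0.296). TP53BP1 had 122 and 137 CPM against 142 and 138, lower in both Cas9 libraries but by only -0.11 ± 0.11. RNF168 had 45.5 and 51.8 CPM in Cas9 and 49.1 and 60.0 in dCas9 (-0.17 ± 0.14). In all, 4 of 10 members had groups that did not overlap, against 49.5% of all genes.

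The size of several of these mRNA values depended on dCas9 mRNA replicate b. Without it, the log2 fold changes were 0.65 for ATM, 0.44 for ATR, 0.36 for CHEK1, 0.29 for TOPBP1 and -0.73 for MDC1. Without dCas9 mRNA replicate a, CLSPN was at -0.44, and without Cas9 mRNA replicate b, ATM was at 0.49. Each of these fits leaves a lone mRNA library in its group, so only the values are given.

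These mRNA values tended to be lower at higher GC content, though their sign did not follow it in every member. Over 10856 tested genes, the Spearman correlation of the 72 h mRNA log2 fold change with coding-sequence GC content was -0.42, and over the 10 members it was -0.66, as a description of genes that share these libraries. ATM, with 38.8% GC, ATR, with 39.99%, and CHEK1, with 41.8%, had positive values, and the 462 genes with 38 to 40% GC had a median of 0.24. MDC1 has 54.7% GC, and the 751 genes with 54 to 56% had a median of -0.069. ATRIP, with 54.9% GC, lay at 0.012. CLSPN, with 43.5%, and RNF168, with 45.5%, had negative values, while CHEK2, with 45.4%, had a positive one. With the GC dependence of each library removed, MDC1 remained at -0.64 (adjusted p = 2.48e-05), CLSPN was called at -0.38 (adjusted p = 0.00457), and ATM, CHEK1 and CHEK2 moved to 0.10, 0.090 and 0.12. ATR and TOPBP1 turned to the other side of 0, at -0.025 and -0.016. In this setting 2 of 10 members were called beside 1944 of 10896 genes, where 614 genes were called without the removal. Long genes as a group were lower too, with a median of -0.12 and 12.1% called among the 861 with at least 1300 codons.

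**Figure D5:**
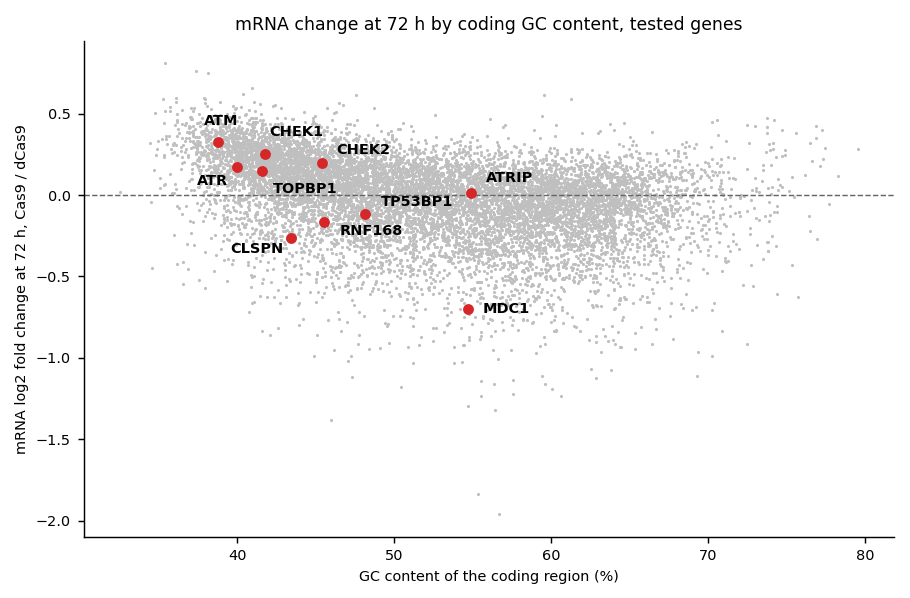
Log2 fold change of mRNA at 72 h (Cas9 over dCas9) against the GC content of the coding region in percent, for tested genes (grey) and the 10 checkpoint genes (red, named). The members slope down with GC content as the grey cloud does, and MDC1 lies at -0.70, where genes of 54 to 56% GC have a median of -0.069.

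Footprints at 72 h were more precise than at 36 h and moved little. The 10 log2 fold changes lay between -0.30 (RNF168) and 0.13 (TP53BP1), with a median of -0.043 against 0.0018 for all genes. None was called by edgeR (0 of 10, 0 at an unadjusted p under 0.05, 0 by DESeq2), where 0.0% of all genes were. Groups did not overlap for 4 of 10, against 31.8% of all genes. These were TOPBP1 (98.1 and 89.8 CPM in Cas9 against 85.9 and 85.8), CLSPN (140 and 133 against 142 and 142), ATRIP (25.2 and 28.0 against 31.6 and 32.4) and RNF168 (11.6 and 15.7 against 18.0 and 16.5). The 95% interval of CHEK1 ran from -0.39 to 0.32 and that of CHEK2 from -0.35 to 0.25. ATM (56.7 and 49.0 CPM against 50.8 and 50.8) and ATR (49.4 and 50.8 against 52.6 and 48.0) had overlapping groups.

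Translational efficiency at 72 h apart from MDC1 lay between -0.28 (CHEK1 and ATM) and 0.25 (TP53BP1), with adjusted p between 0.586 and 0.972. The members other than MDC1, CLSPN and TP53BP1 were below 0, 7 of 10. Without dCas9 mRNA replicate b, ATM was called as well, at -0.61 (adjusted p = 0.0758).

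Whether the effect of Cas9 differed between the time points was tested as 72 h minus 36 h in a fit of all 17 libraries. In mRNA, MDC1 was called, with a difference of -0.81 ± 0.17 (95% interval -1.16 to -0.45, adjusted p = 0.0422), 1 of 10 members against 0.559% of all genes. Its mRNA had been 141 ± 18.7 CPM in Cas9 (n = 3) and 130 ± 6.90 in dCas9 (n = 2) at 36 h, and was 116 ± 10.6 and 188.5 ± 4.21 at 72 h. The dCas9 level was thus higher and the Cas9 level lower at 72 h than at 36 h, though each time point was normalised on its own for these levels. The call was lost without Cas9 replicate c (adjusted p = 0.148) or dCas9 replicate e (0.362) of the 36 h mRNA and without Cas9 replicate a (0.559) or dCas9 replicate b (0.177) of the 72 h mRNA. Time, guide synthesis, aligner and annotation changed together and cannot be told apart in this difference.

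In footprints edgeR called 0 of 10 members between the time points, with 0 at an unadjusted p under 0.05 and 0 by DESeq2, against 0.0224% of all genes. ATM (0.61 ± 0.41), CHEK2 (0.47 ± 0.30) and CHEK1 (0.40 ± 0.29) had the highest differences, with adjusted p of 0.725, 0.715 and 0.77. Without dCas9 footprint replicate d of 36 h, which holds the most footprint reads of that time, 1 member was called, RNF168 (-2.61, adjusted p = 0.0759), whose remaining dCas9 library holds 2 reads. The count over all genes then rose from 2 to 941.

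A further 58 genes of the pathway, listed by function, give the surroundings of the members. In mRNA at 72 h, 5 of the 56 tested were called, 1 up and 4 down, with a median of 0.058 against 0.017 for all genes, of which 5.64% were called. Of the 13 sensors, RPA1, the large subunit of the RPA complex that recruits ATR with ATRIP, fell by 0.94 ± 0.15 on the log2 scale (adjusted p = 0.00204), from 149 and 196 CPM in dCas9 to 74.2 and 105 in Cas9. TIMELESS, a fork protection protein that works with claspin, fell by 0.74 ± 0.13 (adjusted p = 0.0041), from 122 and 138 CPM to 67.7 and 88.5. TRRAP, a catalytically inactive relative of ATM and ATR, fell by 0.58 ± 0.10 (199 and 217 CPM to 127 and 151), and the mitotic kinase PLK1 fell by 0.52 ± 0.095 (188 and 170 CPM to 121 and 128). CDK1, the cyclin-dependent kinase that the checkpoint restrains, rose by 0.44 ± 0.13 (adjusted p = 0.0787), from 146 and 189 CPM to 247 and 209. With the replicate letters as a block in the edgeR fit, CDK1 was not called (0.45, adjusted p = 0.106). As above, libraries sharing a letter at 72 h did not deviate together. Each of the 5 genes was on the same side of 0 in all 4 pairs, where the groups of 49.5% of all tested genes did not overlap. The calls of RPA1, TIMELESS and PLK1 held in the 16 other settings (largest adjusted p 0.0321, 0.0696 and 0.0853), and that of TRRAP was lost without Cas9 mRNA replicate a (adjusted p = 0.102). That of CDK1 was lost without Cas9 mRNA replicate a (0.707), dCas9 mRNA replicate a (0.232) or any of the 4 footprint libraries (0.106 to 0.146) and with each library type fitted alone (0.195), and CDK1 had a log2 fold change of 0.20 with the GC dependence removed. Without dCas9 mRNA replicate b, 20 of the 56 genes were called beside 2473 of all genes, and without Cas9 mRNA replicate a, 3 beside 110.

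None of the 18 tested genes of the ubiquitin and 53BP1 arm was called in mRNA at 72 h by edgeR, with 1 at an unadjusted p under 0.05 and 0 by DESeq2. Of all 10896 tested genes, edgeR called 5.64%, and 17% had an unadjusted p under 0.05. With 18 genes, the absence of a call does not set this arm apart. In footprints RPA1 had 320 and 294 CPM in Cas9 against 319 and 307.5 in dCas9. Its translational efficiency rose by 0.91 ± 0.21 (adjusted p = 0.0866), the 1 call among the 56 genes where 0.716% of all genes were called, and it differed between the time points in mRNA (-0.99 ± 0.20, adjusted p = 0.0354). The efficiency call was lost without Cas9 mRNA replicate a (adjusted p = 0.155) or any of the 4 footprint libraries (0.257 to 0.406), and the call between time points without Cas9 replicate c (0.127) or dCas9 replicate e (0.308) of the 36 h mRNA or Cas9 replicate a (0.479) or dCas9 replicate b (0.246) of the 72 h mRNA. TIMELESS had 116 and 117 CPM in footprints of Cas9 at 72 h and 119 and 114 in dCas9.

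At 36 h edgeR called none of the 52 tested pathway genes in footprints (6 at an unadjusted p under 0.05, 1 by DESeq2), mRNA (0 and 0) or translational efficiency (5 and 0). An unadjusted p under 0.05 was held by 11.5% of the pathway genes in footprints and 9.62% in translational efficiency. Over all 9016 tested genes the shares were 9.56% and 6.3%, and DESeq2 called 46 and 1. The smallest p in footprints and in translational efficiency was that of PPM1D, the phosphatase that reverses ATM signalling, with 42.6 and 36.4 CPM in Cas9 against 66.9 and 75.7 in dCas9. Its log2 fold change was -0.85 ± 0.22 (adjusted p = 0.4003), and it was the gene that DESeq2 called (adjusted p = 0.0996). Without dCas9 footprint replicate d, the log2 value of PPM1D was -0.971 in footprints and -1.057 in translational efficiency. PPM1D also had the smallest p of the list between the time points in footprints (0.75 ± 0.24, adjusted p = 0.388). In mRNA at 36 h PRKDC, the catalytic subunit of DNA-PK, had the smallest p (0.19 ± 0.11, adjusted p = 1), and in footprints at 72 h L3MBTL2, a reader of the ubiquitin pathway (0.31 ± 0.14, adjusted p = 1). In the level of footprints per mRNA, H2AX, the histone that MDC1 binds, stood highest of the list, with log2 ratios of 2.15 ± 0.14 at 36 h and 2.41 ± 0.096 at 72 h.

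The genes whose values ran most like those of the kinases were sought over the 17 libraries, after the mean of each time point and library type was taken away. For ATM these were USP33 (Pearson r = 0.93, Spearman rho = 0.92) and MED17 (r = 0.93), for ATR STAG2 and WRN (both r = 0.90), for CHEK1 CCZ1 (r = 0.93) and ASNSD1 (r = 0.90), and for CHEK2 SLC35F5 (r = 0.94) and CDC42BPA (r = 0.94). They are the best of 8970 genes, and the points share depth, base composition and nuclease. Without the 2 libraries farthest from the median of the kinase, r stayed between 0.78 and 0.90. Among the members themselves, CHEK1 with CHEK2 (r = 0.70) and ATM with ATR (r = 0.69) ran most alike, and CHEK2 with RNF168 least (r = -0.48).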

How the data were processed

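Ribosome footprints and mRNA of HEK293 cells given Cas9 or dCas9 with the sgIntron guide were used, 17 libraries in all. According to the study's methods, the authors aligned the reads with hisat2 at 36 h and tophat at 72 h to different GENCODE releases, whereas the submitters' processing notes name HISAT2 2.1.0. The authors deposited counts of reads per transcript, tabulated with fp-count and not normalized, beside the counted coding length in codons. Reads shared between transcripts of a gene can count on each of them. Groups and replicate letters were taken from the labels, and the Cas9 footprint libraries of 72 h, whose titles differ, from their treatment label. Of Cas9 replicate b at 36 h only mRNA was used. The methods state that lysates were split between both assays, and at 36 h the shared letters were read as marking such lysates, although deviations of their libraries correlated by at most 0.065.

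Transcripts were matched by identifier to GENCODE 44 (25338 of 26679 at 36 h and 94799 of 98334 at 72 h, the rest holding 3.74% and 4.28% of reads), and the transcript with the highest summed count per gene and time point was kept. Each time point was fitted in edgeR 4.0.16 (R 4.3.3) with a mean per nuclease and library type, TMM factors, the quasi-likelihood test and Benjamini-Hochberg adjustment over all genes at a false discovery rate of 0.1. The minimum was a mean count of 20 in each library type. CPM divides by the total over tested genes times the TMM factor, values for library pairs use a prior count of 2, and each SE is the fold change (log2) over the root of its F. The CPM of the cell line markers divides by the total over kept transcripts, without the TMM factor. The difference between time points was fitted over all 17 libraries with the 36 h transcripts. The steps were tested on simulated data. Footprint depth at 36 h was low, and intervals cover the spread between these replicates, each a pool of electroporations of the same line.

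Alternatives were DESeq2 1.42.0, its size factors in edgeR, no count minimum, each library type alone, GC dependence removed, the replicate block, the 36 h transcripts at 72 h, and each library left out in turn. Crossed mRNA letters at 72 h were added after the data were seen. The members and lists were chosen with earlier results of these data known. Named were all members, every pathway gene called in a contrast of Cas9 with dCas9 and the gene with the smallest p in each contrast, and the 2 genes most like ATM, ATR, CHEK1 and CHEK2.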

Additional observations from a re-analysis of the deposited data

Results flagged for a closer look

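The effect of Cas9 on MDC1 mRNA was 0.11 at 36 h and -0.70 at 72 h (log2 fold change), and the edgeR test of the difference gave -0.81 with SE 0.17 and adjusted p = 0.0422 in a fit of both time points. It was the only member for which the test of the difference between time points passed the threshold, in mRNA or in footprints. In footprints the difference was -0.011 (SE 0.20). Because guide synthesis, aligner and annotation also differ between the time points, their part in the difference cannot be told apart from that of time.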

How the results depend on the processing

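Of the values of single genes, 554 of 571 under the other settings and 1046 of 1154 with a library left out kept their direction and their side of the threshold. Limits are the depth of the 36 h footprints, where a member can rest on 2 reads, and groups of 2 or 3 libraries. MDC1 mRNA at 72 h was called in each of the 16 other settings. Where not shown in the report, the cause of a shift was not tested.

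At 36 h, the genes called in footprints numbered 46 with DESeq2, 21 without a count minimum and 1 with GC dependence removed, and the pathway genes 1 with DESeq2. In mRNA 2 were called without a minimum and 2 with each library type alone, and in translational efficiency 1 with DESeq2. At 72 h, footprints gave 1 call with median-ratio size factors, 2 without a minimum, 4 with each type alone and 1 with GC dependence removed. In 72 h mRNA, 293 genes were called with each type alone, and GC removal gave 1944 genes, 16 pathway genes and 2 members. In translational efficiency at 72 h, genes and pathway genes called were 170 and 3 with median-ratio factors, 221 and 4 with DESeq2, 260 and 4 without a minimum, 566 and 5 with GC removed, and 2 pathway genes with the 36 h transcripts. Between the time points DESeq2 called 21 genes in footprints and 175 in mRNA, and no minimum left 0 in footprints.

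Some uncalled values changed sign. With GC removed these were ATR in footprints (0.023), mRNA (-0.025) and translational efficiency (0.047) and TOPBP1 in mRNA (-0.016) and translational efficiency (0.155), all at 72 h. ATRIP mRNA at 72 h was -0.008 with median-ratio factors and -0.008 with DESeq2. Without a minimum, the time difference of MDC1 footprints was 0.009 and that of ATR mRNA -0.008.

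At 36 h a letter was read as marking the footprint and mRNA library of a divided lysate, and the replicate block left 0 genes called in translational efficiency. At 72 h samples that share a letter did not deviate together (correlations 0.011 in footprints and -0.14 in mRNA). At 36 h libraries sharing a letter correlated by at most 0.065. These values therefore cannot decide at either time whether the letters pair samples. With the replicate block at 72 h, 528 genes were called in 72 h mRNA, 88 genes, 3 pathway genes and 0 members in translational efficiency (MDC1 0.624, adjusted p = 0.113), CDK1 mRNA was not called (0.45, adjusted p = 0.106), and ATR footprints moved to 0.0. With the mRNA letters crossed, a block added after the data were seen, the counts were 1135 genes, 10 pathway genes and 2 members in mRNA and 249 genes and 4 pathway genes in translational efficiency.

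With each library left out in turn, where a lone sample is assumed to vary like the other groups, ranges were as follows. In 36 h footprints, 0 to 918 genes and 0 to 10 pathway genes were called, and log2 values were -0.91 to 0.448 for ATM, -0.353 to 0.009 for ATRIP, -0.271 to 0.101 for CLSPN, -0.162 to 0.051 for MDC1, -0.205 to 0.218 for TP53BP1 and -1.268 to 2.289 for RNF168. In 36 h mRNA they were -0.027 to 0.314 for ATM, -0.045 to 0.388 for ATR, -0.176 to 0.003 for ATRIP, -0.033 to 0.134 for CHEK2, -0.078 to 0.049 for TOPBP1, -0.015 to 0.124 for CLSPN, -0.005 to 0.187 for MDC1 and -0.151 to 0.022 for RNF168. In translational efficiency at 36 h, 0 to 474 genes and 0 to 5 pathway genes were called, with -1.045 to 0.312 for ATM, -0.265 to 0.097 for ATRIP, -0.327 to 0.045 for CLSPN, -0.361 to 0.062 for TP53BP1 and -1.203 to 2.354 for RNF168. In 72 h footprints, 0 to 1 genes were called, with -0.053 to 0.158 for ATM, -0.07 to 0.064 for ATR, -0.301 to 0.231 for CHEK1 and -0.195 to 0.031 for MDC1. In 72 h mRNA, 1 to 5 members, 110 to 2473 genes and 3 to 20 pathway genes were called, with -0.077 to 0.437 for ATR, -0.121 to 0.106 for ATRIP and -0.008 to 0.285 for TOPBP1. In translational efficiency at 72 h, 0 to 2 members, 1 to 1065 genes and 0 to 10 pathway genes were called, with -0.439 to 0.075 for ATR, -0.163 to 0.13 for TOPBP1 and -0.403 to 0.031 for RNF168. The footprint to mRNA ratio in dCas9 was -0.062 to 0.12 for ATRIP at 36 h and -0.333 to 0.008 for CLSPN at 72 h. Between time points in footprints, 0 to 1 members and 0 to 941 genes were called, with -0.42 to 0.965 for ATM, -0.276 to 0.093 for ATRIP, -0.226 to 0.039 for TOPBP1, -0.174 to 0.209 for CLSPN, -0.134 to 0.095 for MDC1, -0.084 to 0.331 for TP53BP1 and -2.605 to 0.979 for RNF168. In mRNA, 0 to 1 members and 1 to 89 genes were called, with -0.068 to 0.576 for ATM, -0.213 to 0.346 for ATR and -0.205 to 0.061 for RNF168.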
